A study of Rattus norvegicus with 12 samples.

Results

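The genes described here are 7 rat genes of Toll-like receptor sensing: the receptors Tlr2, Tlr4, Tlr7 and Tlr8, the co-receptors Cd14 and Ly96, and the adaptor Myd88. They were chosen by name from the 22601 genes of the expression table, with earlier results of these data known. All 7 were among the 12633 genes that reached the minimum level for testing. RNA was sequenced from bone defects in the distal femur of Sprague Dawley rats, 8 weeks old at surgery, 2 weeks after a hole was drilled. There were 4 groups of 3 libraries: a hydrogel group (a 3D-printed gelatin methacryloyl hydrogel scaffold), a PCL group (polycaprolactone, a slowly degrading polyester), a β-TCP group (beta-tricalcium phosphate, a resorbable calcium phosphate ceramic) and a control group whose drilled defect received no scaffold. The scaffold groups were sampled as the scaffold with the tissue in it and the control group as newly formed tissue, so scaffold material and sampled tissue cannot be told apart. The labels describe each library as one sample of hindlimb bone. The study's methods speak in general of independent samples in each group, but neither they nor the labels tie a library to a rat, so a p-value speaks of the spread among these libraries, which may be technical.

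Toll-like receptors are sensors of the innate immune system that bind microbial products and, in damaged tissue, have been linked to molecules released from dying cells and broken matrix. TLR2 and TLR4 sit on the cell surface, where CD14 hands lipopolysaccharide to TLR4 and its partner MD-2, the product of Ly96. TLR7 and TLR8 read single-stranded RNA inside endosomes, and all 4 receptors signal through the adaptor MyD88 to the kinases of the IRAK family, to NF-κB and to interferon regulatory factors. In bone these genes are used mostly by macrophages, neutrophils and the monocytes from which osteoclasts form.

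Promoter sequences are shown for Tlr2 and Cd14, whose levels varied most between libraries, and for Myd88, whose level varied least. They come from RefSeq on the build GRCr8, which is not the build of the expression files, and run from 250 bases before to 50 bases after the annotated start, 5′ to 3′ on the gene's strand, all 3 of them the minus strand. Capitals mark matches to 4 motifs searched on both strands: the NF-κB site GGGANTTCC, the PU.1 core GAGGAA, the AP-1 site TGANTCA and the C/EBP site TTGCNNAA. The positions are chr2:171504508-171504807 for Tlr2, chr18:28611109-28611408 for Cd14 and chr8:127956181-127956480 for Myd88.
Tlr2: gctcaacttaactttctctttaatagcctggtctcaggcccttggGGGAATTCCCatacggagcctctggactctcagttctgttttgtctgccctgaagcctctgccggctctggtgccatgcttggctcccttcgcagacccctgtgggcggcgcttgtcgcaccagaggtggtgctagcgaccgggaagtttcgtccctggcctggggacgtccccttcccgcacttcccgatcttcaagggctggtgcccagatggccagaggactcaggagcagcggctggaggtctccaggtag
Cd14: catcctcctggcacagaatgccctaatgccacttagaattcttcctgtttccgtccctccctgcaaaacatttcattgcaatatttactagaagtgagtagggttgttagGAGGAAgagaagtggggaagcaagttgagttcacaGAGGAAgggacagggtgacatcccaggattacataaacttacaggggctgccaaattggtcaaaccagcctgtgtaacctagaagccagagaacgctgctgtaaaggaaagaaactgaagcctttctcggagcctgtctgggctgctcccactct
Myd88: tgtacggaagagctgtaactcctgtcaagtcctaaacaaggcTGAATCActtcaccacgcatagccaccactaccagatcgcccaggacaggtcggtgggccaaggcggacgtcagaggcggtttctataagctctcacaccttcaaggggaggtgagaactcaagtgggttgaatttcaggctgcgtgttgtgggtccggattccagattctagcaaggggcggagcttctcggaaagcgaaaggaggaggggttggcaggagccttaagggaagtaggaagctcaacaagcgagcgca
The Tlr2 window held the NF-κB letters 205 bases before the start, with the same letters on the other strand shifted by 1 base, and these letters occurred in 1.64% of the 33469 rat promoters of this length. The Cd14 window held the PU.1 core at 140 and 105 bases before the start, letters found in 27.6% of promoters, and the Myd88 window held the AP-1 letters at 208 bases before the start, found in 7.33%. Of the 6 members with a promoter in the table, Tlr4, Tlr7 and Tlr8 also held the PU.1 core, and Tlr7 and Tlr8 held the C/EBP letters, which occurred in 10.6% of promoters. Ly96 had no entry. A match describes the letters of the window and is not evidence of a bound factor.

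Libraries held 15036447 to 17358370 mapped fragments, as recovered from the deposited values, so that no member had fewer than 243 fragments in any library. The β-TCP libraries 2 and 3 stood apart from every other pair of replicates: their fragments differed by a mean chi-square of 2.15 per gene, where counting noise alone gives 1, against 35.3 to 362 in the other 11 within-group pairs. They differed by about 2 times counting noise and were kept as 2 libraries, so that β-TCP means and SDs count both. Whether they come from separate tissues was not settled, and results that rest on them are also given with them averaged. Control library 3 also stood apart, with a summed level of cartilage markers of 12400 FPKM (fragments scaled to exon length and to library size), against 2010 and 1950 FPKM in control libraries 1 and 2, and neutrophil markers of 23.1 FPKM, against 804 and 876 FPKM. Defining markers of bone and of bone marrow cells were found in all libraries: summed osteoblast markers were at least 6210 FPKM, osteoclast markers at least 2130 FPKM and macrophage markers at least 2060 FPKM.

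Per length of transcript, Cd14 and Ly96 had the highest mean FPKM over the 12 libraries, 32.5 and 28.9, followed by Myd88 at 22.2, Tlr8 at 20.0, Tlr2 at 16.2, Tlr7 at 8.12 and Tlr4 at 6.94. Thus over all libraries the receptor Tlr4 was the lowest of the 7 and its partners Cd14 and Ly96 the highest. By group mean, Cd14 was the highest only in β-TCP. In hydrogel it had 20.3 FPKM, where Myd88 had 23.7 FPKM, and in control both had 20.6 FPKM. Between 37.2% (Tlr4) and 81.7% (Cd14) of tested genes had a lower mean FPKM. Across libraries the highest FPKM was 6.09 times the lowest for Tlr2 and 6.06 times for Cd14, but 1.92 times for Myd88 and 1.98 times for Tlr4.

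**Figure D1:**
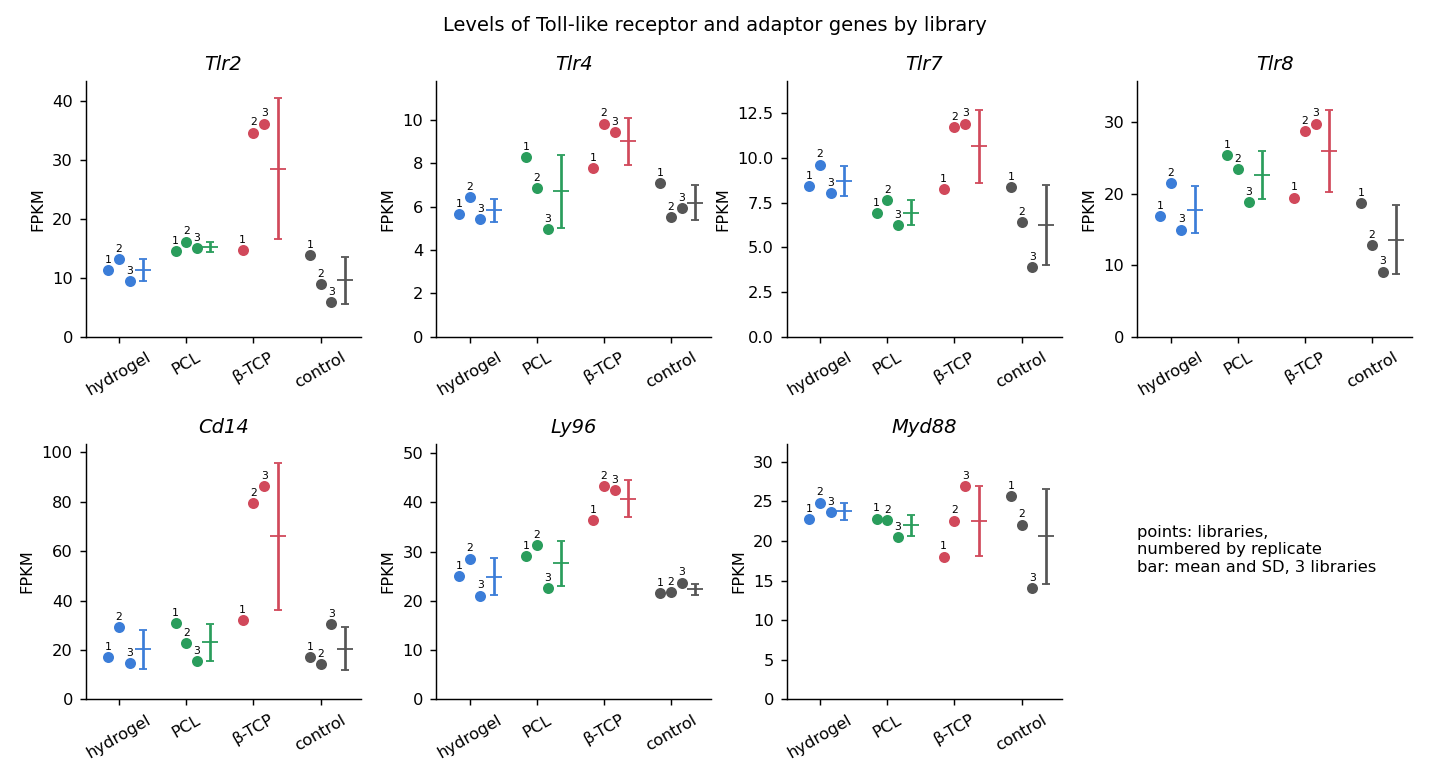
FPKM of each member in the 12 libraries, with hydrogel, PCL, β-TCP and control from left to right; points are libraries numbered by replicate, and bars are the mean and SD of 3 libraries on linear axes that start at 0. The β-TCP libraries 2 and 3 are the highest points of Tlr2, Cd14 and Ly96, while β-TCP library 1 lies lower in all 7 panels and the Myd88 groups overlap.

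Cd14, the co-receptor that captures lipopolysaccharide and delivers it to TLR4, had 17.0, 29.3 and 14.7 FPKM in hydrogel libraries, 30.8, 22.9 and 15.5 FPKM in PCL libraries and 32.0, 79.6 and 86.3 FPKM in β-TCP libraries, against 17.2, 14.2 and 30.5 FPKM in control libraries. The β-TCP libraries 2 and 3 were far above all others, whereas β-TCP library 1 was only just above the highest PCL and control libraries. Means were 20.3 ± 7.86 FPKM in hydrogel, 23.1 ± 7.67 in PCL and 66.0 ± 29.6 in β-TCP, against 20.6 ± 8.64 FPKM in control (SD, n = 3 each). In order of mean level the groups ran β-TCP, PCL, control and hydrogel, and the last 3 differed by less than their SDs.

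Ly96, whose product MD-2 forms the lipid-binding pocket of the TLR4 complex, had 25.0, 28.6 and 21.1 FPKM in hydrogel libraries, 29.1, 31.3 and 22.5 FPKM in PCL libraries and 36.4, 43.2 and 42.5 FPKM in β-TCP libraries, against 21.5, 21.8 and 23.7 FPKM in control libraries. All 3 β-TCP libraries, library 1 included, were above the other 9. The mean was 40.7 ± 3.76 FPKM in β-TCP and 22.3 ± 1.16 FPKM in control, with PCL (27.7 ± 4.56) and hydrogel (24.9 ± 3.74) between them and within 1 SD of each other (n = 3 each).

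Tlr4, the lipopolysaccharide receptor itself, had 5.64, 6.44 and 5.43 FPKM in hydrogel libraries, 8.29, 6.86 and 4.96 FPKM in PCL libraries and 7.77, 9.83 and 9.43 FPKM in β-TCP libraries, against 7.10, 5.52 and 5.95 FPKM in control libraries. The β-TCP libraries were above all control and hydrogel libraries but overlapped the PCL libraries, among which PCL library 1 was higher than β-TCP library 1. Group means were 5.84 ± 0.531 FPKM in hydrogel, 6.70 ± 1.67 in PCL and 9.01 ± 1.09 in β-TCP, against 6.19 ± 0.817 FPKM in control (SD, n = 3 each).

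Tlr2, the surface receptor for bacterial lipoproteins, had 11.3, 13.2 and 9.47 FPKM in hydrogel libraries, 14.6, 16.1 and 15.0 FPKM in PCL libraries and 14.7, 34.6 and 36.1 FPKM in β-TCP libraries, against 13.9, 8.98 and 5.93 FPKM in control libraries. All PCL and all β-TCP libraries were above the highest control library, but β-TCP library 1 lay among the PCL libraries, at less than 50% of its 2 replicates. The means were 11.3 ± 1.87 FPKM in hydrogel, 15.2 ± 0.8 in PCL and 28.5 ± 11.9 in β-TCP, against 9.59 ± 3.99 FPKM in control (SD, n = 3 each), so the order was β-TCP, PCL, hydrogel and control, with hydrogel and control within 1 SD.

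Tlr7, an endosomal receptor for single-stranded RNA, had 8.41, 9.62 and 8.03 FPKM in hydrogel libraries, 6.90, 7.64 and 6.23 FPKM in PCL libraries and 8.27, 11.7 and 11.9 FPKM in β-TCP libraries, against 8.37, 6.39 and 3.91 FPKM in control libraries. Here PCL libraries were all below the hydrogel and β-TCP libraries, and control libraries overlapped every scaffold group. Tlr8, its neighbour on the X chromosome and also an RNA sensor in human cells, had 16.9, 21.5 and 15.0 FPKM in hydrogel libraries, 25.4, 23.5 and 18.9 FPKM in PCL libraries and 19.5, 28.8 and 29.8 FPKM in β-TCP libraries, against 18.7, 12.9 and 9.13 FPKM in control libraries. For Tlr8 the PCL libraries stood with the β-TCP libraries, above all control libraries. In the RefSeq annotation of GRCr8 a pseudogene, Ybx1-ps7, overlaps Tlr8, and reads of the pair could be shared.

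Myd88, the adaptor through which all 4 receptors signal, had 22.7, 24.8 and 23.6 FPKM in hydrogel libraries, 22.8, 22.7 and 20.4 FPKM in PCL libraries and 18.0, 22.6 and 26.9 FPKM in β-TCP libraries, against 25.7, 22.1 and 14.0 FPKM in control libraries. The groups overlapped throughout, with means of 23.7 ± 1.04 FPKM in hydrogel, 22.0 ± 1.33 in PCL and 22.5 ± 4.44 in β-TCP, against 20.6 ± 5.97 FPKM in control (SD, n = 3 each). The lowest library was control library 3 and the highest β-TCP library 3. Myd88 overlaps its neighbour Acaa1a in the GRCr8 annotation, and if strand was not used in counting, their reads could not be told apart.

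With the β-TCP scaffold, 6 of the 7 members had log2 fold changes of 0.48 to 1.58 against control, and 2 of them, Tlr2 and Ly96, rose at an adjusted p under 0.05 in limma's test over all 12633 genes. Tlr2 rose by 1.45 on the log2(FPKM + 1) scale (SE 0.34, limma adjusted p = 0.0398), a 2.72-fold change, and Ly96 by 0.83 (SE 0.15, limma adjusted p = 0.0176), a 1.78-fold change. Cd14 had the largest difference, 1.58 (SE 0.43, 95% interval 0.64 to 2.52), with limma adjusted p = 0.0623. Tlr8 differed by 0.92 (adjusted p = 0.064), Tlr7 by 0.72 (adjusted p = 0.0928) and Tlr4 by 0.48 (adjusted p = 0.144) in the same limma fit, and none of these passed. Myd88 differed by 0.15, with a 95% interval of -0.30 to 0.59 that holds no 2-fold change in either direction. In bulk tissue, fewer cells of a type and less RNA per cell cannot be told apart, so these are levels in the whole sample.

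The 2 of 7 members called stand beside 4.78% of all tested genes called in β-TCP against control. As the members were chosen with earlier results known, such counts serve as description only. By the criterion that the study's methods set, a more than 2-fold difference at an unadjusted p under 0.05, 2 of 7 members passed, Tlr2 and Cd14, beside 3.51% of all genes. Without the fold requirement 6 of 7 members were higher, all but Myd88, beside 14.7% of all genes. In 5 of 7 members all β-TCP libraries were above all control libraries, the exceptions being Tlr7 and Myd88, beside 17.9% of all genes. The median log2 fold change of the members was 0.83 and that of all tested genes 0.03.

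These calls rest on few libraries. With β-TCP libraries 2 and 3 averaged into 1, the limma adjusted p was 0.175 for Tlr2 and 0.0981 for Ly96, 0 members were called (5 had an unadjusted p under 0.05) and 11 of all genes were called. Each of β-TCP library 2, β-TCP library 3 and control library 2 was needed for both calls: left out in turn, they gave a limma adjusted p of 0.178, 0.178 and 0.1001 for Tlr2 and of 0.102, 0.098 and 0.0553 for Ly96. The Tlr2 call was also lost without control library 3 (adjusted p = 0.0509), hydrogel library 1 (0.0646) or 2 (0.0526), or PCL library 1 (0.0583), 2 (0.0668) or 3 (0.0539) in limma. Without control library 3, 2 members were nevertheless called, Tlr2 not among them, beside 10.5% of all genes. Without β-TCP library 1 instead, 4 members were called, beside 4.05% of all genes. They were Tlr2 (log2 fold change 1.85, limma adjusted p = 0.0091), Cd14 (2.03, adjusted p = 0.0205), Ly96 (0.91, adjusted p = 0.019) and Tlr8 (1.11, adjusted p = 0.0476). Without control library 1, 4 were called, Tlr2, Ly96, Tlr7 and Tlr8, beside 4.53% of all genes. The log2 fold change of Tlr2 lay between 1.17 and 1.85 and that of Ly96 between 0.79 and 0.91 with any 1 library left out.

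**Figure D2:**
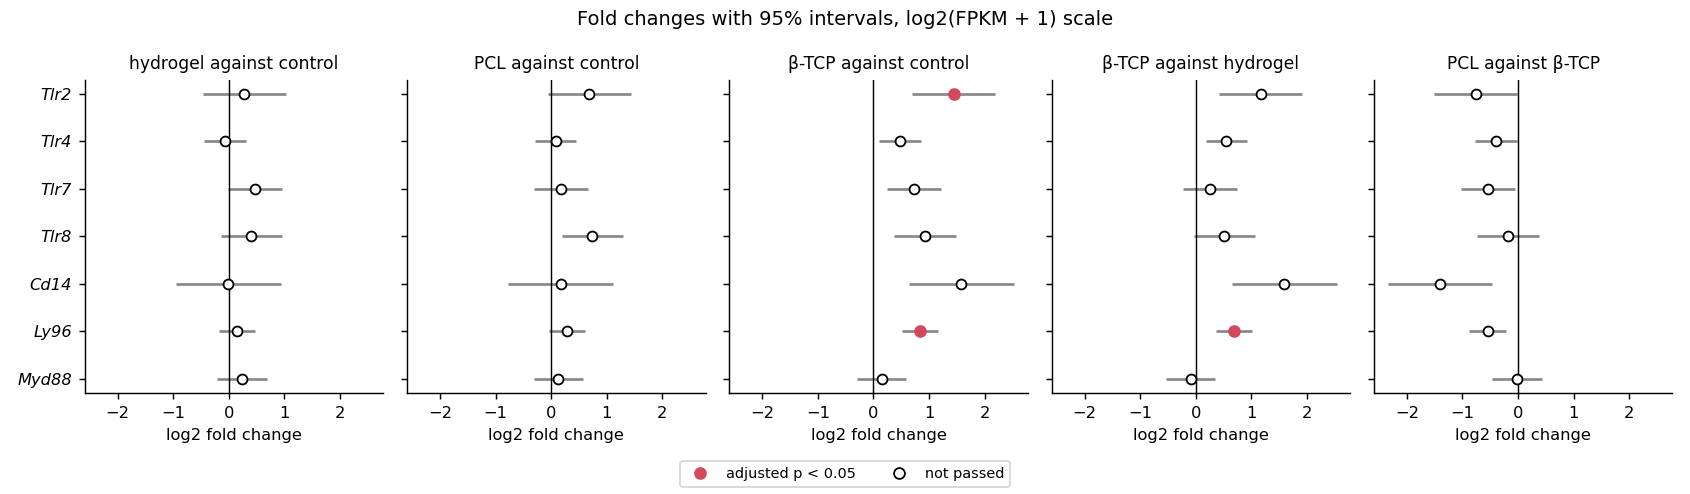
Log2 fold changes of the 7 members on the log2(FPKM + 1) scale in 5 comparisons, 1 per panel, with 95% intervals from limma; filled points passed an adjusted p under 0.05. Filled points are Tlr2 and Ly96 in β-TCP against control and Ly96 in β-TCP against hydrogel, and the interval of Myd88 includes 0 in every panel.

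Set against the hydrogel, the β-TCP scaffold gave log2 fold changes of 1.59 for Cd14 (SE 0.43, limma adjusted p = 0.0531), 1.17 for Tlr2 (SE 0.34, adjusted p = 0.064) and 0.55 for Tlr4 (SE 0.17, adjusted p = 0.0716). Ly96 rose, by 0.70 (SE 0.15, limma adjusted p = 0.0251), and was the only member called, 1 of 7 beside 6.13% of all genes. The RNA sensors Tlr8 and Tlr7 differed by 0.52 and 0.25, and Myd88 by -0.09, with limma adjusted p of 0.167, 0.411 and 0.756. At unadjusted p under 0.05 with more than 2-fold, 2 of 7 members passed, Tlr2 and Cd14, beside 8.38% of all genes, and at p alone 4 of 7 were higher beside 16.1%. The same 4, Cd14, Ly96, Tlr2 and Tlr4, had all β-TCP libraries above all hydrogel libraries, beside 23% of all genes. The Ly96 call was lost with β-TCP libraries 2 and 3 averaged (limma adjusted p = 0.124) and without hydrogel library 1 (0.0726) or 3 (0.114) or β-TCP library 2 (0.125) or 3 (0.123). Cd14, Tlr2 and Tlr4 were also called, 4 members in all, with median-of-ratios scaling (where 10.7% of all genes were called), with quantile normalization (12.2%), in a fit of only these 2 groups (33.6%) and without control library 3 (37.6%). Leaving out control library 2, hydrogel library 2, PCL library 3 or β-TCP library 1 gave 2, 2, 2 and 3 members, beside 15.6%, 6.14%, 5.94% and 5.31% of all genes.

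Both comparisons share the β-TCP libraries, so their values are not independent. PCL against β-TCP shares them as well. There, all 7 members had negative log2 fold changes, 0 of 7 were called beside 0.657% of all genes, and 5 had an unadjusted p under 0.05 as lower, beside 13.1%. That count was 2 with β-TCP libraries 2 and 3 averaged and without β-TCP library 2, β-TCP library 3 or PCL library 3, and 3 without hydrogel library 1 or PCL library 1 or 2 and with the replicate block. Cd14 had -1.40 (SE 0.43, limma adjusted p = 0.132) and alone passed the unadjusted p with 2-fold, 1 of 7 beside 4.48%. Ly96 had -0.55 (SE 0.15, limma adjusted p = 0.108), Tlr2 -0.76 (SE 0.34, adjusted p = 0.216), Tlr7 -0.54 (SE 0.22, adjusted p = 0.19) and Tlr4 -0.40 (SE 0.17, adjusted p = 0.204). In Cd14, Ly96 and Tlr7 all PCL libraries were below all β-TCP libraries, 3 of 7 beside 23.2%, whereas the Tlr8 difference was -0.18 with a 95% interval of -0.74 to 0.37. Without control library 3, which took no part in this contrast except through the shared spread, 3 members were called, Cd14, Ly96 and Tlr7, beside 15.1% of all genes. Without β-TCP library 1, 2 members passed the unadjusted p with 2-fold.

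Neither the PCL nor the hydrogel scaffold gave a member that passed the adjusted test against control in limma. In PCL against control 0 of 7 were called, beside 0.277% of all genes, 0 passed the unadjusted p with 2-fold, beside 3.64%, and 1, Tlr8, had an unadjusted p under 0.05 as higher, beside 11.1%. That count was 2 without control library 1, PCL library 3 or β-TCP library 1 and in a fit of only these 2 groups, and 0 without control library 3. Tlr8 differed by 0.74 (SE 0.25, limma adjusted p = 0.198) and Tlr2 by 0.68 (SE 0.34, adjusted p = 0.302), and these were the 2 of 7 members whose PCL libraries were all above the control libraries, beside 10.3% of all genes. The other 5 had log2 fold changes between 0.08 (Tlr4) and 0.28 (Ly96). In hydrogel against control 0 of 7 were called (0 at an unadjusted p under 0.05 as well), beside 0.00792% of all genes, 0 passed the unadjusted p with 2-fold, beside 2.29%, and 0 had all hydrogel libraries above all control libraries, beside 9.15%. Without control library 1, 2 members had an unadjusted p under 0.05, and without β-TCP library 1, 1 did. The nearest was Tlr7 at 0.47 (SE 0.22, limma adjusted p = 0.312), and Cd14 was at -0.01 with a 95% interval of -0.95 to 0.93, too wide to say that the groups were alike. In hydrogel against control the median of all genes was itself 0.14, close to the members' 0.24, and with median-of-ratios scaling these medians were 0.01 and 0.09.

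Between PCL and hydrogel 0 of 7 members were called (0 at an unadjusted p under 0.05 as well in limma), beside 0.103% of all genes, and 0 passed the unadjusted p with 2-fold, beside 0.768%. Log2 fold changes ran between -0.29 (Tlr7, 95% interval -0.78 to 0.20) and 0.41 (Tlr2, 95% interval -0.34 to 1.15). With the 3 scaffold groups pooled against control, 0 of 7 were called beside 0.0396% of all genes and 0 passed the unadjusted p with 2-fold beside 1.8%. At an unadjusted p under 0.05 Tlr2 (0.80), Tlr8 (0.69), Tlr7 (0.46) and Ly96 (0.42) were higher, 4 of 7 beside 11.1% of all genes. Without control library 1, 1 member passed the unadjusted p with 2-fold.

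Around the members, the genes of the same pathway were counted by role, in lists also chosen with earlier results known. In β-TCP against control, 7 of the 79 tested pathway genes rose at a limma adjusted p under 0.05 and 0 fell: 1 of 8 other Toll-like receptors, 1 of 9 NF-κB and interferon regulatory factors, 3 of 12 inhibitors and 2 of 11 target genes. None was called among 3 other adaptors, 9 accessory proteins, 13 kinases and TRAF proteins, 5 receptors of the interleukin-1 family, which share MyD88, and 9 matrix or alarmin ligands in this limma fit. At an unadjusted p under 0.05 these 5 lists had 1, 3, 1, 1 and 0 genes higher, and 1 ligand gene was lower, beside 14.7% of all genes higher and 3.25% lower. The background in this comparison is the 4.78% given above.

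Tlr13, a rodent receptor for bacterial ribosomal RNA, rose by 1.14 (SE 0.27, limma adjusted p = 0.0409), with 29.0, 37.8 and 38.6 FPKM in β-TCP libraries, against 23.5, 14.0 and 10.6 FPKM in control libraries. Its PCL libraries, at 33.7, 31.9 and 23.9 FPKM, were also above the control libraries, the pattern seen in Tlr2 and Tlr8. Among the other adaptors, Ticam1, which encodes TRIF, had 5.01 ± 0.395 FPKM in β-TCP and 4.79 ± 0.708 FPKM in control, and Tirap, which bridges TLR2 and TLR4 to MyD88, had 3.93 ± 0.106 FPKM in β-TCP and 4.01 ± 0.706 FPKM in control (SD, n = 3 each). Ticam2, which encodes TRAM, the adaptor between TLR4 and TRIF, was named after its values were seen. It had 3.85, 5.80 and 5.50 FPKM in β-TCP libraries, against 3.02, 3.00 and 1.82 FPKM in control libraries, without overlap, and its difference of 0.75 (SE 0.20, limma adjusted p = 0.0668) did not pass. Of 9 accessory genes 8 had positive log2 fold changes, with a median of 0.56. Of those with the highest levels, Hsp90b1, the chaperone that folds Toll-like receptors, had a log2 fold change of -0.13 and Lbp, the lipopolysaccharide carrier, of 0.13, where 1 control library had 244 FPKM and the other control libraries 80.6 and 76.3. The kinase list had a median log2 fold change of 0.16, with Irak1, the kinase recruited by MyD88, at 0.04 and Tab2 at 0.02.

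Inhibitors and targets of NF-κB held 5 of the 7 pathway genes called in β-TCP against control. Nfkbia, which encodes the inhibitor IκBα and is itself an NF-κB target, had 137, 148 and 141 FPKM in β-TCP libraries, against 74.0, 60.0 and 49.3 FPKM in control libraries, and rose by 1.22 (SE 0.18, limma adjusted p = 0.0125). Unlike Tlr2 and Cd14, its 3 β-TCP libraries lay close together. Tnfaip3, which encodes the deubiquitinase A20, rose by 0.96 (adjusted p = 0.0359), its partner Tnip1 by 0.87 (adjusted p = 0.0195) and the NF-κB subunit gene Relb by 0.86 (adjusted p = 0.038) in limma. Ccl2, a monocyte chemokine, had 28.7, 65.2 and 62.8 FPKM in β-TCP libraries, against 11.7, 8.28 and 12.1 FPKM in control libraries, and rose by 2.12 (SE 0.36, limma adjusted p = 0.016). Icam1, a leukocyte adhesion molecule, had 31.9, 40.6 and 38.1 FPKM in β-TCP libraries, against 18.3, 12.7 and 13.5 FPKM in control libraries, and rose by 1.27 (SE 0.19, limma adjusted p = 0.0125). Of the 18 targets listed, 11 were tested. Those too low to test included Tnf (at most 0.171 FPKM) and Ifnb1 (0 FPKM in every library). Among the 11 targets tested, 10 had positive log2 fold changes, with a median of 1.27.

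**Figure D3:**
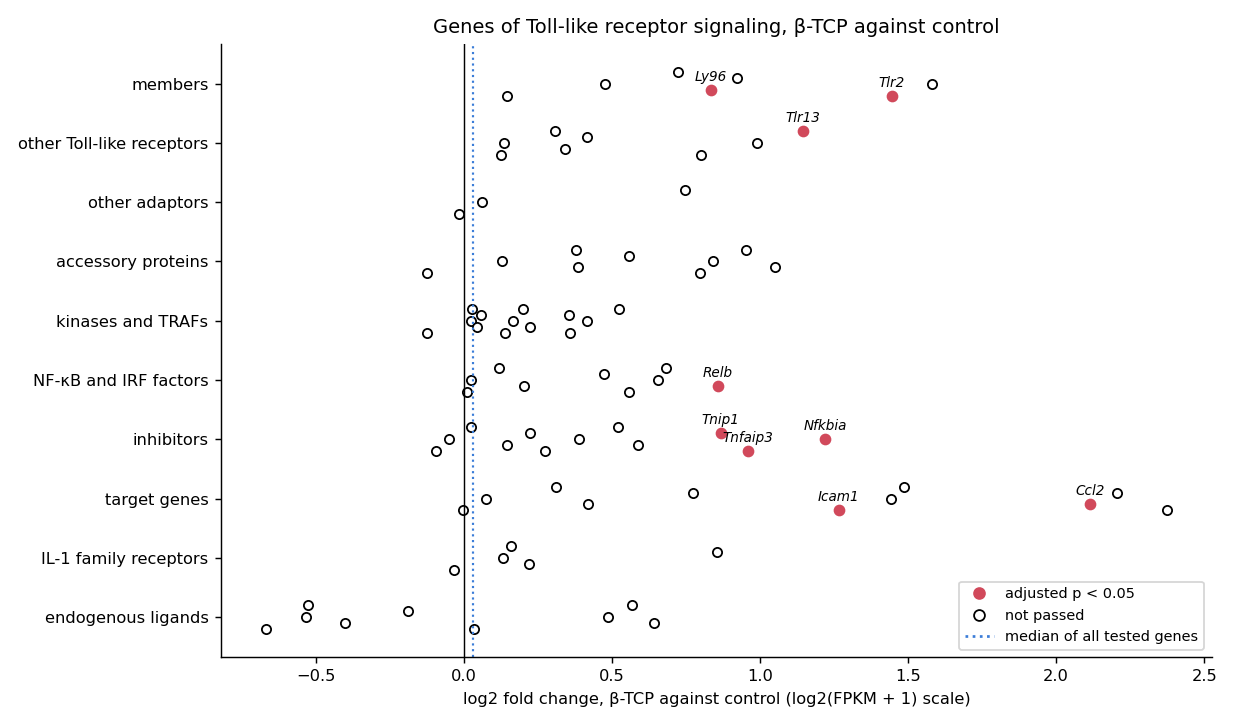
Log2 fold changes of β-TCP against control on the log2(FPKM + 1) scale, 1 point per tested gene, by role in the pathway; filled points with names passed an adjusted p under 0.05 in limma, and the dotted line is the median of all tested genes, 0.03. Named genes are Tlr2, Ly96, Tlr13, Relb, Nfkbia, Tnfaip3, Tnip1, Ccl2 and Icam1, and no point left of 0 is filled.

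In β-TCP against hydrogel, 3 of 12 inhibitors and 5 of 11 targets rose, beside the 6.13% of all genes, and 0 genes of the other lists were called in limma (over all 79 pathway genes, 18 were higher and 1 lower at an unadjusted p under 0.05, beside 16.1% and 18.2% of all genes). Among these were the neutrophil chemokine Cxcl1 (2.39, SE 0.40, limma adjusted p = 0.0131), Ccl2 (2.32, SE 0.36, adjusted p = 0.0113), Icam1 (1.37, SE 0.19, adjusted p = 0.0088), and Nfkbiz, an inducible cofactor of NF-κB (0.85, SE 0.20, adjusted p = 0.0359). The remaining target called was Il6, with 0.845, 1.061 and 1.215 FPKM in β-TCP libraries and 0.288, 0.061 and 0.127 FPKM in hydrogel libraries. It reached the minimum level only through β-TCP libraries 2 and 3 and control library 2 (1.072 FPKM), so its call carries no weight. In PCL against β-TCP, Cxcl1 (-2.42, adjusted p = 0.0362), Icam1 (-0.99, adjusted p = 0.0496) and Nfkbia (-1.33, adjusted p = 0.0198) fell in limma, beside 0.657% of all genes. In hydrogel against control 0 of 79 pathway genes were called in limma, with 3 higher and 5 lower at an unadjusted p under 0.05, beside 8.62% and 6.37% of all genes. In PCL against control 0 of 79 were called, with 9 higher and 4 lower, beside 11.1% and 7.34%.

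With β-TCP libraries 2 and 3 averaged, or with either left out, 0 pathway genes were called in these 3 comparisons of β-TCP (7, 8 and 3 with all libraries). In β-TCP against control, leaving out control library 2 gave 2 pathway genes (0.97% of all genes were then called), control library 1 gave 12 (4.53%), and hydrogel library 1 or PCL library 2 gave 4 (2.57% and 2.37%). Nfkbia and Icam1 lost their call in that comparison only in those settings that averaged or left out β-TCP library 2 or 3, of 23 settings tried, and their log2 fold changes stayed between 1.04 and 1.37 and between 1.17 and 1.42. Tlr13 lost its call in 12 of 23 settings, Relb in 11, Tnfaip3 in 9, and Tnip1 and Ccl2 in 5 each. In β-TCP against hydrogel, leaving out hydrogel library 1 or 3 gave 3 pathway genes (1.8% and 0.907% of all genes) and PCL library 2 gave 4 (3.43%). Control library 3 gave 28, or 35.4% of the pathway genes beside 37.6% of all genes. In PCL against β-TCP, 0 remained called without PCL library 2 or 3, 1 without hydrogel library 1 or control library 1, and 16 were called without control library 3, or 20.3% beside 15.1% of all genes. There Icam1 lost its call in 20 of 23 settings, Cxcl1 in 12 and Nfkbia in 5. In β-TCP against hydrogel Tnfaip3 lost its call in 11, Nfkbiz in 9, Tnip1 in 7, Nfkbia in 5, and Cxcl1, Ccl2 and Icam1 in 3 each. Il6 lost its call in 6 of the 19 settings in which it was tested.

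Markers of several cell types also differed between the groups. Summed macrophage markers had 4360, 9400 and 9450 FPKM in β-TCP libraries, against 4170, 3120 and 2060 FPKM in control libraries, but 65.5% to 82.7% of this sum was Lyz2, the lysozyme gene. Without Lyz2, which was left out once its values were known, the sum was 1350, 1880 and 1890 FPKM in β-TCP libraries, against 902, 769 and 709 FPKM in control libraries, with at most 1100 FPKM in PCL and 1060 FPKM in hydrogel libraries. So β-TCP library 1 was near the highest control library in the full sum, as for Tlr2, but above all 9 libraries of the other groups without Lyz2. Taken singly, only 4 of the 13 listed macrophage genes were higher in β-TCP library 1 than in all 9, and 8 were higher than in all control libraries. The full sum was 3690 to 5550 FPKM in hydrogel libraries and 4800 to 5290 FPKM in PCL libraries. Of 12 macrophage markers tested, 8 rose in β-TCP against control in limma, with a median log2 fold change of 1.08, beside the 4.78% of all genes. The count was 0 with β-TCP libraries 2 and 3 averaged or either left out and in a fit of only these 2 groups, 2 without control library 2, and 5 without hydrogel library 1 or PCL library 1 or 2. Summed osteoclast markers were 9050, 8900 and 8920 FPKM in β-TCP libraries, against 4420, 3210 and 4930 FPKM in control libraries, without the gap between β-TCP library 1 and the other two. Most of this sum was Ctsk, with 6920, 6883 and 6866 FPKM in β-TCP libraries and 3118, 2157 and 3580 FPKM in control libraries. Of 7 osteoclast markers tested, 3 rose against control in limma, 0 with β-TCP libraries 2 and 3 averaged or either left out, 1 without control library 2 or β-TCP library 1 or with quantile normalization, and 5 without hydrogel library 3. Summed neutrophil markers were 264 to 389 FPKM in β-TCP libraries, against 804, 876 and 23.1 FPKM in control libraries. Hydrogel libraries had 776 to 1360 FPKM and PCL libraries 489 to 1010 FPKM. Cartilage markers had 130 to 809 FPKM in β-TCP libraries, against 1950 to 12400 FPKM in control libraries. They were also below control in hydrogel (140 to 679 FPKM) and PCL (84.0 to 295 FPKM) libraries. The part of these cell types in the members' differences was not tested.

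**Figure D4:**
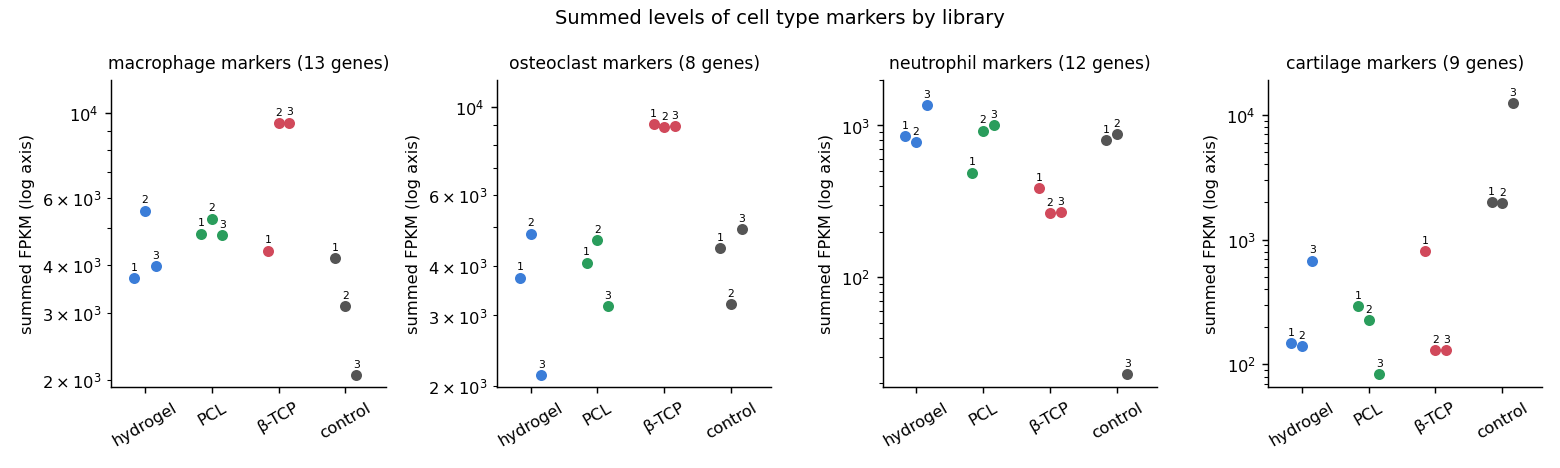
Summed FPKM of macrophage, osteoclast, neutrophil and cartilage markers by library on log axes, with hydrogel, PCL, β-TCP and control from left to right and points numbered by replicate. The macrophage sum, which is mostly Lyz2, is high in β-TCP libraries 2 and 3. The osteoclast sum, which is mostly Ctsk, is high in all 3 β-TCP libraries. Control library 3 has the lowest neutrophil sum, 23.1, and the highest cartilage sum, 12400.

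Across the 12 libraries, which include the group differences, Pearson's r on the log2(FPKM + 1) scale between a member and the summed macrophage markers was 0.967 for Tlr2, 0.939 for Tlr8, 0.878 for Tlr7, 0.771 for Ly96, 0.713 for Tlr4, 0.692 for Cd14 and 0.65 for Myd88. Without Lyz2 in the sum the order was another, with 0.957 for Ly96, 0.921 for Tlr2, 0.896 for Tlr4, 0.885 for Cd14, 0.832 for Tlr8, 0.768 for Tlr7 and 0.336 for Myd88. With summed osteoclast markers, which are mostly Ctsk, r was 0.886 for Ly96, 0.857 for Cd14, 0.824 for Tlr4, 0.662 for Tlr2 and -0.064 for Myd88. Myd88 had its highest r, 0.698, with neutrophil markers, where Cd14 had -0.505. Control library 3 was the lowest library in both, with 14.0 FPKM of Myd88 and a neutrophil sum of 23.1 FPKM. All other libraries had a neutrophil sum of at least 264 FPKM, and r without control library 3 was not computed. These values share libraries and depth and serve as description.

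Among the members, the highest r over the 12 libraries were between Tlr2 and Tlr8 (0.911), Cd14 and Ly96 (0.908), Tlr4 and Cd14 (0.877) and Tlr4 and Ly96 (0.869). The genes of the lipopolysaccharide complex thus varied with each other, but Tlr2 also varied with Ly96 (0.822) and Tlr4 (0.784). Myd88 was near 0 with Cd14 (0.083) and Ly96 (0.153). After the group means were removed, Myd88 varied with Tlr7 (r = 0.953), Tlr7 with Tlr8 (0.946) and Tlr2 with Tlr7 (0.906), whereas Cd14 with Ly96 was at 0.786. Tlr4 was then at 0.736 with Tlr8, 0.711 with Ly96 and 0.686 with Cd14. The 3 tested genes most like Tlr2 were Lrrc25 (r = 0.989), Clec4a2 (0.984) and Cd33 (0.981). For Tlr8 they were Ptpro (0.980), Ndufaf7 (0.975) and Abcg1 (0.975), for Tlr7 Cd8a (0.958), Mpeg1 (0.956) and Disc1 (0.956), and for Tlr4 Nek7 (0.972), Cpeb2 (0.968) and Traf1 (0.963). Cd14 was most like Rbpj (0.972), Vash1 (0.969) and Eno1 (0.969), Ly96 most like Mfsd1 (0.977), Tgfbr1 (0.969) and Dennd2a (0.967), and Myd88 most like Vsig10l (0.971), RT1-CE5 (0.930) and Ppp1r18 (0.924). No gene was the nearest to 2 members.

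Ratios of FPKM within a library do not depend on its depth. Tlr8 to Tlr7 was 3.68, 3.08 and 3.03 in PCL libraries, against 2.01, 2.23 and 1.87 in hydrogel libraries, 2.35, 2.45 and 2.50 in β-TCP libraries and 2.23, 2.01 and 2.33 in control libraries. All 3 PCL libraries were thus above the other 9, a pattern that was chosen after its values were seen and was not tested. Ly96 to Tlr4 was narrower, 4.40 to 4.68 in β-TCP libraries, against 3.03 to 3.98 in control libraries, and 3.03 to 4.68 over all 12. Relative to Csf1r, the receptor for the macrophage growth factor CSF1, Tlr2 was 0.0483, 0.120 and 0.122 in β-TCP libraries, against 0.0705, 0.0639 and 0.0468 in control libraries. Cd14 to Csf1r was 0.105, 0.277 and 0.292 in β-TCP libraries, against 0.0874, 0.101 and 0.240 in control libraries. Ly96 to Csf1r overlapped between them, at 0.120 to 0.151 in β-TCP libraries and 0.110 to 0.187 in control libraries. Myd88 to Csf1r was 0.0592 to 0.0910 in β-TCP libraries, below the 0.110 to 0.157 of control libraries. Tlr4 to Csf1r was also lower, at 0.0255 to 0.0342 in β-TCP libraries, against 0.0361 to 0.0469 in control libraries. For Tlr7 and Tlr8 this ratio overlapped between the 2 groups. Csf1r itself had 304, 287 and 295 FPKM in β-TCP libraries, against 196, 140 and 127 FPKM in control libraries. A lower ratio to it is thus not a lower level of the member.

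**Figure D5:**
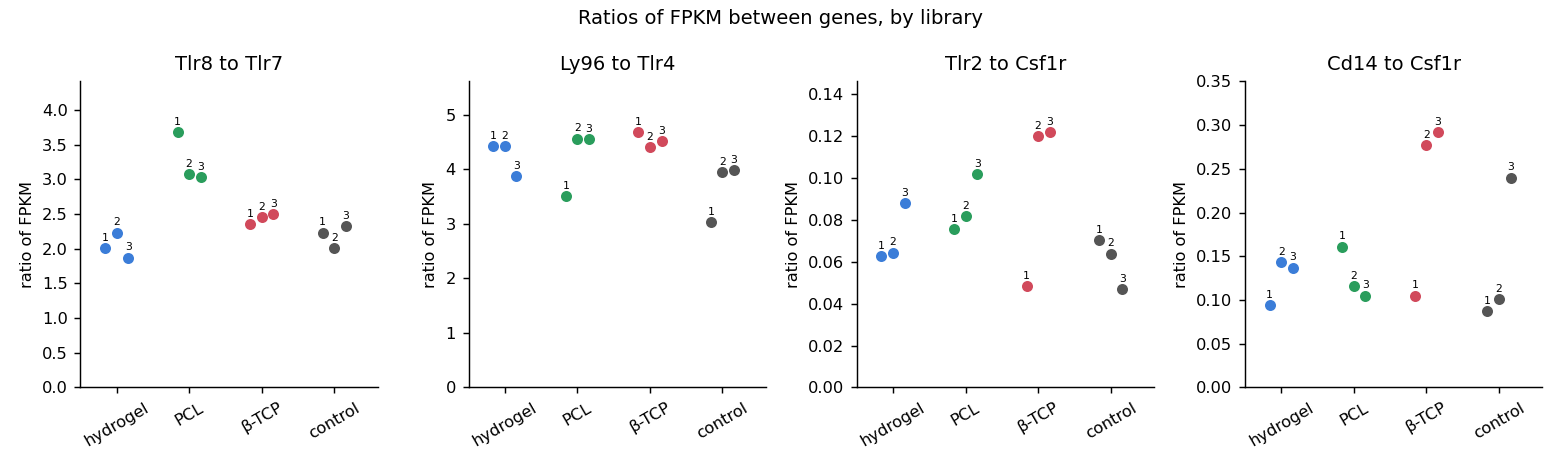
Ratios of FPKM between genes of the same library, with hydrogel, PCL, β-TCP and control from left to right, points numbered by replicate and axes that start at 0. Tlr8 to Tlr7 is highest in the 3 PCL libraries (3.03 to 3.68), and Tlr2 and Cd14 relative to Csf1r are high in β-TCP libraries 2 and 3 but not in β-TCP library 1.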

How the data were processed

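The deposited table gave FPKM per gene, which the authors computed with Cufflinks after trimming with Trimmomatic and alignment with HISAT2. Rnor_6.0 is the build in the submitters' processing notes, which further list Bowtie, StringTie, HTSeq and DESeq and give no versions. The labels describe a stranded TruSeq kit and the paper's methods a VAHTS kit, and which applied is not settled. Libraries were grouped by their labels, and 3 further value columns matching no label were not used.

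The test covered the 12633 of 22601 genes that reached 1 FPKM in 3 or more libraries. It used limma 3.58.1 (R 4.3.3) on log2 values of FPKM plus a pseudocount of 1, so fold changes of low genes are understated. A single fit of 12 libraries had 1 mean per group, empirical Bayes with a trend, and two-sided p-values that were adjusted by Benjamini-Hochberg over all genes tested. On data simulated for β-TCP against control over 12633 genes, it called 33, 46, 49 and 49 of 50 genes changed by 1, 2, 3 and 4 on the log2 scale, and 11 unchanged genes. The simulated noise was independent between libraries, with 1 SD per gene. It held no near-alike libraries such as β-TCP libraries 2 and 3, so these rates may not hold for the real test. Intervals are 95% intervals from the single fit of 12 libraries. Fragments were recovered from the FPKM: 18648 of 18684 genes above 0 (99.8%) were whole multiples within 0.01 of a fragment in every library. On data simulated at depths near these, 2907 of 2969 genes and 12 of 12 totals were recovered; over a wider range of depths 229 of 2976 genes and 10 of 12 totals were, although all values were whole, because totals came out 2 or more times too high. Such totals make nearly all counts even or multiples of 3, whereas 47.8% to 49.0% of the counts here were even and 30.8% to 32.2% multiples of 3. On these, limma-voom called 442 genes as higher and 37 as lower in β-TCP against control, where the test above called 533 and 71. Tables were made in Python 3.11.15.

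Members and gene lists were chosen with earlier results of these data known. Named genes are the members, up to 4 genes of each pathway list with the largest called change in any comparison or else the 2 highest, and the 3 genes most like each member. Alternatives were other pseudocounts (0.1, 0.5), filters, scalings, groups fitted, no trend, limma-voom, the replicate number as a block, β-TCP libraries 2 and 3 averaged, and each library left out. For the pathway genes they were run after the values were seen.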

Additional observations from a re-analysis of the deposited data

How the results depend on the processing

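Over 49 log2 fold changes of members and 23 alternatives, 1051 of 1120 values kept their direction and their side of the threshold, 22 lost a call, 26 gained one and 21 changed sign in 13 small differences, the largest of 0.24. In β-TCP against control, 2 members were called. That count was 1 with no filter (2.86% of all genes called), with the replicate block (2.55%) and with only the groups compared (0.982%). It was 0 with β-TCP libraries 2 and 3 averaged (0.0871%), and 0 to 4 with 1 library left out. With 1 library left out, 0.0636% to 10.5% of all genes were called in that comparison. In β-TCP against hydrogel, 1 member was called. The count was 4 with median-of-ratios scaling (10.7% of all genes), quantile normalization (12.2%) or only the groups compared (33.6%). With libraries 2 and 3 averaged it was 0 (0.127%), and with 1 left out 0 to 4 (0.0159% to 37.6%). There 2 members passed the unadjusted p with 2-fold, and 1 with those libraries averaged and 1 to 2 with 1 left out. In PCL against β-TCP, 0 members were called, 1 with only the groups compared (17.3% of all genes) and 0 to 3 with 1 left out (0.00795% to 15.1%). With 1 left out, 1 to 2 members passed the unadjusted p with 2-fold. For the scaffolds together this was 0 to 1.

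Of pathway genes, 7 were called in β-TCP against control, 8 against hydrogel and 3 in PCL against β-TCP. With only the groups compared these were 2, 25 and 18, or 2.53%, 31.6% and 22.8%, beside 0.982%, 33.6% and 17.3% of all genes. With the replicate block they were 4, 4 and 1, beside 2.55%, 2.85% and 0.356%. With libraries 2 and 3 averaged they were 0, 0 and 0, beside 0.0871%, 0.127% and 0.0158%. With 1 library left out they were 0 to 12, 0 to 28 and 0 to 16, beside 0.0636% to 10.5%, 0.0159% to 37.6% and 0.00795% to 15.1%. Against hydrogel there were 14 with median-of-ratios scaling (beside 10.7% of all genes) and 15 with quantile normalization (12.2%). In PCL against β-TCP there was 1 with either other pseudocount (0.301% and 0.42%) or with limma-voom (0.357%). Replicate numbers did not pair the libraries: the deviations of 18 same-numbered pairs correlated at -0.612 to 0.469, 4 of them over 0.1.

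Sign changes with other scaling were Ly96 in hydrogel against control (-0.01 with median-of-ratios scaling, -0.00 with quantile normalization) and Myd88 in PCL against β-TCP (0.02 with median-of-ratios scaling), which was also 0.05 with libraries 2 and 3 averaged. With 1 library left out, the range that crossed 0 was -0.16 to 0.12 for Myd88 in PCL against β-TCP, -0.11 to 0.30 in PCL against control, -0.10 to 0.32 in β-TCP against control, -0.22 to 0.05 in β-TCP against hydrogel, -0.00 to 0.41 in hydrogel against control and -0.07 to 0.34 for the scaffolds together. For Cd14 it was -0.29 to 0.30 in hydrogel against control, -0.05 to 0.48 in PCL against control and -0.04 to 0.47 in PCL against hydrogel. For Tlr4 it was -0.14 to 0.02 in hydrogel against control and -0.06 to 0.26 in PCL against control, for Tlr7 -0.07 to 0.39 in PCL against control. The causes were not tested.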
